A study of Mus musculus with 7 samples.

Results

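The eicosanoid and platelet-activating factor (PAF) genes described here are 10 of the 47643 genes in a table of mouse alveolar macrophage RNA. They were chosen by symbol as leukotriene enzymes (Alox5, Alox5ap, Lta4h, Ltc4s), prostaglandin enzymes (Ptgs1, Ptgs2, Ptges, Hpgds), the prostacyclin receptor (Ptgir) and the plasma-type PAF hydrolase (Pla2g7). The cells, alveolar macrophages that live in the airspaces of the lung and clear particles, had been sorted as positive for CD11c, F4/80 and SiglecF, and their poly(A) RNA was sequenced. In 3 libraries (cSiah1a/2f/f::Lyz2cre, called Lyz2cre here) the floxed alleles of Siah1a and Siah2, which encode RING-type ubiquitin ligases, were combined with Cre driven by Lyz2, the lysozyme gene of macrophages, monocytes and neutrophils. In 1 library (cSiah1a/2f/f::CD11ccre, called CD11ccre here) the same floxed alleles were combined with Cre driven by the CD11c promoter, which is active in alveolar macrophages and dendritic cells. The remaining 3 libraries were labelled WT, and their labels do not say whether they carry Cre or floxed alleles. The labels give neither ages nor the animal behind each library, so the p-values below measure the spread between these libraries.

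Eicosanoids are short-lived lipid signals made from arachidonic acid that phospholipases free from membranes. In the leukotriene branch, 5-lipoxygenase (Alox5) works with its activating protein FLAP (Alox5ap) to make leukotriene A4, which LTA4 hydrolase (Lta4h) turns into the neutrophil attractant LTB4 and LTC4 synthase (Ltc4s) joins to glutathione to give the cysteinyl leukotrienes. In the prostaglandin branch, the cyclooxygenases (Ptgs1, constitutive, and Ptgs2, inducible) make prostaglandin H2, from which terminal synthases such as Ptges and Hpgds make prostaglandins E2 and D2. PAF is an ether phospholipid that activates platelets and leukocytes, and Pla2g7 hydrolyses it and oxidised phospholipids to inactive products. Alveolar macrophages are a known source of leukotrienes in the lung.

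TPM is scaled for transcript length within a library, so levels can be compared between genes, but the sequencing depth is unknown and no counting interval is given. The targeted genes were low in the deleted libraries. Siah1a was listed at 0, 0 and 0.05 TPM in the Lyz2cre libraries and 0 in CD11ccre, against 6.72 to 16.59 TPM in WT, and Siah2 stood at 1.63 TPM ± 0.275 in Lyz2cre and 1.21 TPM in CD11ccre, against 14.5 TPM ± 2.47 in WT (SD, n = 3 each for Lyz2cre and WT). All 15 alveolar macrophage markers were above the 1 TPM limit for testing, and they went both ways in Lyz2cre against WT: 6 rose (Marco, Car4, Fabp4, Chil3, Cd68 and Plet1), 4 fell (Siglecf, Fabp1, Cidec and Ear2) and 5 did not pass. Their summed level was 65446 to 80626 TPM in Lyz2cre and 73212 TPM in CD11ccre, against 32960 to 36199 TPM in WT, most of it Chil3. Siglecf, whose product was sorted on, stood at 65.48 to 106.62 TPM in Lyz2cre and 53.87 TPM in CD11ccre, against 210.72 to 256.50 TPM in WT. Ftl1, Fth1, Chil3 and Lyz2 together took 14.5% to 16.3% of the TPM in Lyz2cre and 19.1% in CD11ccre, against 4.91% to 5.30% in WT. Lyz2 itself stood at 46.62 to 61.89 TPM in Lyz2cre and 50676.05 TPM in CD11ccre, against 72.56 to 86.25 TPM in WT, so the CD11ccre library stands apart from both other groups for this gene. The WT libraries are near the level of the Lyz2cre libraries, in which the Cre driver is Lyz2. Whether the libraries labelled WT carry that Cre allele was not tested, and WT is used below as the label only. Transcripts of mitochondrially encoded genes took 2.67% to 4.61% of the TPM in Lyz2cre and 4.23% in CD11ccre, against 7.54% to 9.25% in WT. TPM sums to a fixed total in each library, and the median log2 fold change of all 11397 genes tested was -0.16 in Lyz2cre against WT and -0.29 in CD11ccre against WT. Differences below are best read against these medians. In these bulk libraries, fewer cells of a type and less RNA per cell cannot be told apart.

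In Siah-deleted macrophages, Alox5ap was lower, Alox5 and Ltc4s were lower without passing the test, and Lta4h was near the WT level. Ptgs1, Hpgds, Ptgir and Pla2g7 were higher, though Ptgs1 passed in Lyz2cre only. In Lyz2cre against WT, 4 of the 9 members tested rose (Pla2g7, Ptgir, Ptgs1 and Hpgds), 1 fell (Alox5ap) and 4 did not pass (Alox5, Ltc4s, Lta4h and Ptges). Over all genes tested, 2.17% rose and 4.6% fell (6.76% in all) by the same rule, an adjusted p below 0.05 in limma. Members and lists were chosen with earlier results of these data known. The shares of all genes given here and below are therefore background and not a test of the members. That split depends on scaling: 247 genes rose and 524 fell as reported, while 337 rose and 207 fell with median-of-ratios scaling. Ptgs2 averaged below 1 TPM and was not tested. All 3 Lyz2cre libraries lay above all 3 WT libraries for 4 members, as for 7.45% of all genes tested. They lay below all WT libraries for 3 members (Alox5, Alox5ap and Ltc4s), as for 23.3% of all genes tested. The median log2 fold change of the 9 members was 0.30 in Lyz2cre, which is the value of Ptges, and -0.071 in CD11ccre. It therefore does not describe a shift shared by the members.

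**Figure D1:**
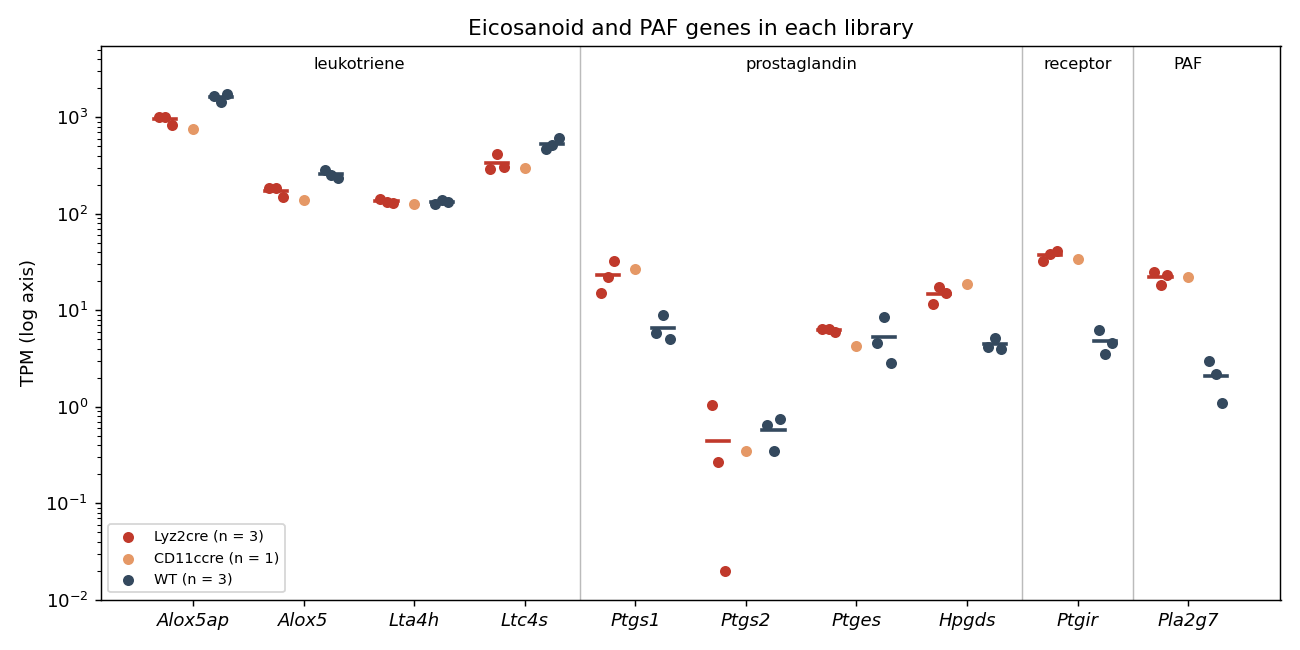
TPM of the 10 genes (log axis) in each Lyz2cre, CD11ccre and WT library, 1 point per library and a bar at the mean of 3. The Alox5ap points lie at 833.25 to 1020.09 TPM in Lyz2cre, below the WT points at 1445.99 to 1760.39 TPM, and the Pla2g7 points lie at 18.23 to 24.93 TPM in Lyz2cre, above the WT points at 1.09 to 2.99 TPM.

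Alox5ap (ENSMUSG00000060063; chromosome 5, 149264767 to 149288153, plus strand, GRCm38) encodes FLAP, the membrane protein that presents arachidonic acid to 5-lipoxygenase. It stood at 1020.09, 1010.92 and 833.25 TPM in the Lyz2cre libraries and 763.50 TPM in CD11ccre, against 1654.66, 1445.99 and 1760.39 TPM in WT. Every deleted library was below every WT library, with a 1.70-fold lower mean in Lyz2cre (log2 fold change -0.76 ± 0.12 SE, adjusted p = 0.0154). Alox5 (chromosome 6, 116410077 to 116461178, minus strand) encodes the lipoxygenase itself. It stood at 183.48, 186.63 and 148.59 TPM in the Lyz2cre libraries and 138.66 TPM in CD11ccre, against 285.07, 249.88 and 232.80 TPM in WT. The groups did not overlap, but the log2 fold change of -0.57 in Lyz2cre (95% interval -0.88 to -0.25) did not pass over all genes (adjusted p = 0.0507).

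Of the enzymes that share leukotriene A4 as their substrate, Ltc4s had ranges that were apart between Lyz2cre and WT, and Lta4h had ranges that overlapped. Ltc4s (chromosome 11, 50236461 to 50238616, minus strand) stood at 289.04, 414.29 and 306.61 TPM in the Lyz2cre libraries and 295.90 TPM in CD11ccre, against 469.09, 516.80 and 603.64 TPM in WT. Its highest Lyz2cre value was below its lowest WT value, and the log2 fold change was -0.66 (95% interval -1.05 to -0.28, adjusted p = 0.0566). Lta4h (chromosome 10, 93453411 to 93484875, plus strand) stood at 142.51, 131.52 and 129.17 TPM in the Lyz2cre libraries and 125.75 TPM in CD11ccre, against 125.97, 138.86 and 131.82 TPM in WT. These groups overlapped, and the 95% interval of the log2 fold change in Lyz2cre ran from -0.22 to 0.26 (adjusted p = 0.919). The coefficient of variation of Lta4h was 5.30% in Lyz2cre and 4.88% in WT, the lowest of the 10 genes in WT and, after Ptges, in Lyz2cre.

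A ratio taken within each library does not depend on how the library is scaled. Ltc4s stood at 2.03, 3.15 and 2.37 times the Lta4h level in Lyz2cre and 2.35 times in CD11ccre, against 3.72, 3.72 and 4.58 times in WT. On the log2 scale the ratio averaged 1.31 ± 0.32 in Lyz2cre and 2.00 ± 0.17 in WT (SD, n = 3 each), without overlap. The exact two-sided permutation test gave p = 0.1, the smallest that 3 against 3 libraries allow, and the difference of -0.69 ran from -0.86 to -0.54 when each library was left out in turn.

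The Alox5ap call in Lyz2cre ended without WT replicate 1 (adjusted p = 0.0547), without Lyz2cre replicate 3 (0.0567), with no filter on low values (0.0604) and without limma's variance trend (0.0554), and across its 18 alternatives the adjusted p ran from 0.00881 to 0.0604. Alox5 passed with a mean of at least 5 TPM (0.0396), with robust fitting (0.0397), rescaled without mitochondrially encoded genes (0.0272) and without the CD11ccre library (0.0465), and its adjusted p ran from 0.0272 to 0.147. Ltc4s passed without Lyz2cre replicate 2 (0.0410) and in the first 3 of those settings (0.0434, 0.0425 and 0.0334), with a range of 0.0334 to 0.174. Under median-of-ratios scaling, which sets the median of all genes near 0, the Lyz2cre log2 fold changes were -0.58 for Alox5ap (adjusted p = 0.0289), -0.38 for Alox5 (0.119) and -0.48 for Ltc4s (0.167). Eosinophils and neutrophils, other leukotriene makers, could have entered the sort. Of the 5 eosinophil markers, all (Prg2, Prg3, Epx, Ccr3 and Il5ra) were listed at 0 in every library. Of the 11 neutrophil markers, Ly6g, Camp, Ngp and Elane were listed at 0 throughout, and the summed level of the list was 116 to 164 TPM in Lyz2cre and 148 TPM in CD11ccre, against 37.8 to 81.2 TPM in WT. That sum was mostly S100a8 and Mmp8, and its part in the results was not tested.

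Of the cyclooxygenases, Ptgs1 (chromosome 2, 36230426 to 36252272, plus strand) was the one that averaged above 1 TPM. It stood at 15.21, 21.92 and 32.57 TPM in the Lyz2cre libraries and 26.91 TPM in CD11ccre, against 5.85, 8.84 and 5.07 TPM in WT. All deleted libraries exceeded all WT libraries, and Ptgs1 rose 3.53-fold in Lyz2cre (log2 fold change 1.64 ± 0.30 SE, adjusted p = 0.0242). Leaving out 1 library ended the Ptgs1 call where it was WT replicate 1 (0.0780) or 3 (0.0655), or Lyz2cre replicate 2 (0.0788) or 3 (0.0754), and the call also ended with no filter on low values (0.0886), and across alternatives the adjusted p ran from 0.0152 to 0.0886. Platelets also carry Ptgs1. The summed level of the 6 platelet markers was 1.83 to 7.15 TPM in Lyz2cre and 1.18 TPM in CD11ccre, against 5.23 to 11.3 TPM in WT, and its part in the Ptgs1 result was not tested.

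Ptgs2 (chromosome 1, 150100031 to 150108227, plus strand), the inducible cyclooxygenase, was near the lower end of the table in every library. It stood at 1.03, 0.27 and 0.02 TPM in the Lyz2cre libraries and 0.35 TPM in CD11ccre, against 0.64, 0.35 and 0.74 TPM in WT. The groups overlapped, and in the fit without a filter its Lyz2cre log2 fold change was -0.18 ± 0.28 (SE, adjusted p = 0.744). As a share of Ptgs1 plus Ptgs2 within a library, Ptgs2 made up 6.34%, 1.22% and 0.0614% in Lyz2cre and 1.28% in CD11ccre, against 9.86%, 3.81% and 12.7% in WT. For the Lyz2cre minus WT difference of -6.26 percentage points, an exact two-sided permutation test gave p = 0.2, and the groups overlapped.

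Of the terminal synthases, Hpgds passed and Ptges did not. Hpgds (chromosome 6, 65117293 to 65144908, minus strand), the haematopoietic prostaglandin D synthase, stood at 11.51, 17.44 and 15.18 TPM in the Lyz2cre libraries and 18.62 TPM in CD11ccre, against 4.14, 5.21 and 3.94 TPM in WT. No deleted library overlapped WT, and Hpgds rose 3.32-fold in Lyz2cre (log2 fold change 1.52 ± 0.21 SE, adjusted p = 0.00910), a call that held in all 18 alternatives. Mast cells are rich in Hpgds. Of 10 mast cell and basophil markers, 7 were listed at 0 throughout, among them Cpa3, Fcer1a and Ms4a2. The list summed to at most 0.29 TPM in Lyz2cre, 0.11 TPM in CD11ccre and 0.12 TPM in WT, and the part of mast cells in the Hpgds result was not tested. Ptges (chromosome 2, 30889471 to 30929863, minus strand), the inducible microsomal prostaglandin E synthase, stood at 6.44, 6.43 and 5.92 TPM in the Lyz2cre libraries and 4.25 TPM in CD11ccre, against 4.53, 8.54 and 2.85 TPM in WT. The WT libraries enclosed all deleted ones, and the 95% interval of the Lyz2cre log2 fold change was wide, at -0.47 to 1.08 (adjusted p = 0.621). Ptges overlaps another gene on its strand in GENCODE M21 (Gm13400), so the assignment of its reads is uncertain.

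The largest differences among the 10 genes were in the receptor and the PAF hydrolase. Ptgir (chromosome 7, 16906490 to 16910905, plus strand) encodes the receptor for prostacyclin, which signals through cyclic AMP. It stood at 32.78, 38.17 and 41.63 TPM in the Lyz2cre libraries and 33.90 TPM in CD11ccre, against 6.31, 3.52 and 4.61 TPM in WT. The lowest deleted library was far above the highest WT library, and Ptgir rose 7.80-fold in Lyz2cre (log2 fold change 2.75 ± 0.21 SE, adjusted p = 0.00164). Ptgis, the synthase of its ligand and a gene of endothelium, did not exceed 0.20 TPM in Lyz2cre, stood at 0.45 TPM in CD11ccre and was listed at 0 in every WT library. The 6 endothelium markers summed to 88.1 to 127 TPM in Lyz2cre and 72.6 TPM in CD11ccre, against 30.3 to 59.9 TPM in WT. Nearly all of that sum was Vwf, and the part of endothelial RNA in the Ptgir result was not tested. Pla2g7 (ENSMUSG00000023913; chromosome 17, 43568098 to 43612201, plus strand) stood at 24.93, 18.23 and 23.04 TPM in the Lyz2cre libraries and 21.94 TPM in CD11ccre, against 2.99, 2.19 and 1.09 TPM in WT. The deleted libraries kept clear of the WT range and differed little from each other, and the log2 fold change in Lyz2cre was 2.94 ± 0.27 (SE, adjusted p = 0.00268). Both calls held in all 18 alternatives. On plain TPM the Pla2g7 ratio was 10.6 in Lyz2cre, more than the log2(TPM + 1) scale gives, because the added 1 matters at the WT level.

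**Figure D2:**
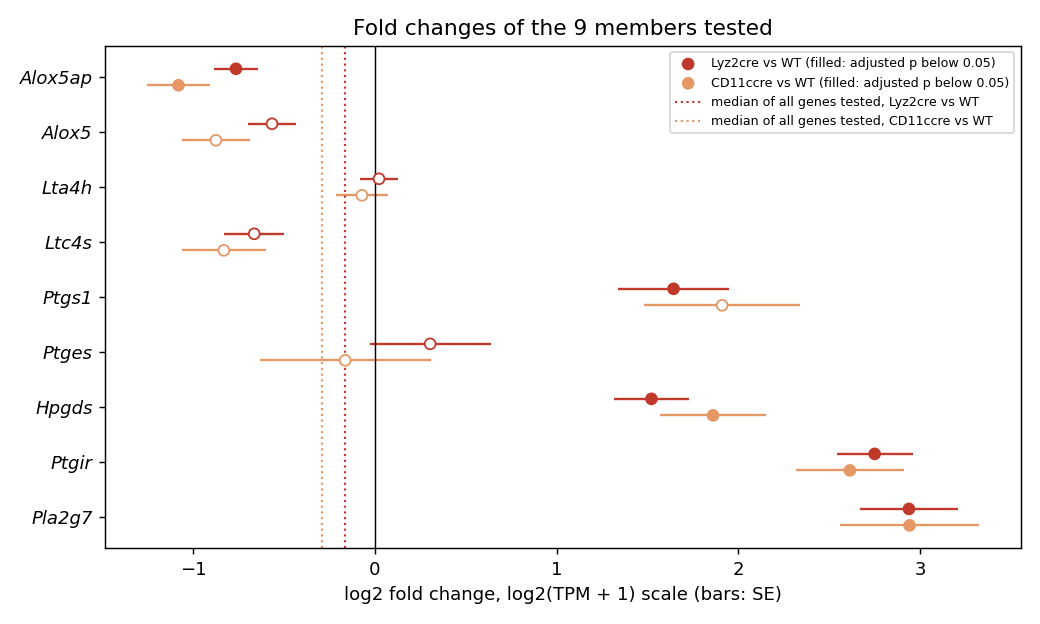
Log2 fold changes of the 9 genes tested, on the log2(TPM + 1) scale with SE bars, for Lyz2cre and CD11ccre against WT; filled points have an adjusted p below 0.05 and dotted lines mark the median of all genes tested. Pla2g7 (2.94 in both comparisons) and Ptgir (2.75 and 2.61) lie farthest right, and Alox5ap (-0.76 and -1.08) farthest left.

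For 5 genes, the 250 bases before the RefSeq start lie outside the gene's GENCODE M21 span, and the upstream sequences of 4 of them are given. Ptgir and Ptgs1 stand for genes that rose and Alox5 and Lta4h for the leukotriene branch, while Ptgs2 is not shown. Sequences are from RefSeq (GRCm38.p6), read 5′ to 3′ on the gene's strand, and capitals mark matches to TGANNNNGC, the core of the antioxidant response element, on either strand.
Ptgir, chr7:16906240-16906489, plus strand: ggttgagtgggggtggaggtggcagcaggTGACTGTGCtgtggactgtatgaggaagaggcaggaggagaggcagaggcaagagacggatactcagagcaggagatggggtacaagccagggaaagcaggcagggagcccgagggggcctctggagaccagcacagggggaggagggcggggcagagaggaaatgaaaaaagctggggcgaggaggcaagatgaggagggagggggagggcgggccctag
Ptgs1, chr2:36230176-36230425, plus strand: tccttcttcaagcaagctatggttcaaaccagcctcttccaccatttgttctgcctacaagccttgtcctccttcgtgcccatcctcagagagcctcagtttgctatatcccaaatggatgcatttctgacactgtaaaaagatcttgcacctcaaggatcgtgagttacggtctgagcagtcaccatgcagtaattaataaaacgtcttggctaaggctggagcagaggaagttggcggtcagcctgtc
Alox5, chr6:116461179-116461428, minus strand: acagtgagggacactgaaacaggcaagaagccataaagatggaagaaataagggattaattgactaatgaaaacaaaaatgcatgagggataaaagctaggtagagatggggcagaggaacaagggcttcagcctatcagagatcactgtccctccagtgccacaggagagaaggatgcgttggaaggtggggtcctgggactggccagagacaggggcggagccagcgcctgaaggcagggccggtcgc
Lta4h, chr10:93453146-93453395, plus strand: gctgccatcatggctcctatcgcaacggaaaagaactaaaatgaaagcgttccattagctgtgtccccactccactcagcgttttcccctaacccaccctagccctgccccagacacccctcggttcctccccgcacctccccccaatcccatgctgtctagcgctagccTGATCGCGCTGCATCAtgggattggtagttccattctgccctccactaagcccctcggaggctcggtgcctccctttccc

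The RefSeq table held a promoter window, from 250 bases before to 50 bases after the start, for 9 of the 10 genes, all but Alox5ap. The letters TGANNNNGC stood in 5 of these 9 windows (Ptgir, Pla2g7, Lta4h, Ptgs2 and Ptges), as in 41.3% of all 32851 windows. Among the 4 genes that rose in Lyz2cre, Ptgir and Pla2g7 held them and Ptgs1 and Hpgds did not. The 250 bases before the RefSeq start lay wholly inside the gene's own GENCODE M21 span for Pla2g7 and Ptges. They lay inside in part for Hpgds (178 bases) and Ltc4s (84 bases), so these windows may not all be upstream of the gene. The hypoxia element core ACGTG and the cyclic AMP element letters TGACG, whose matches overlap each other there, stood only in the Ptgs2 window of the 9, beside 19.6% of all windows for ACGTG and 20.8% for TGACG, all searched on both strands. A match is a description of these letters and says nothing about binding.

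CD11ccre was represented by 1 library, which the test assumes to vary like the other groups. Its comparison with WT uses the same WT libraries as the Lyz2cre comparison, so the 2 are not independent. Of the 9 members tested, 3 rose and 1 fell against WT, beside 0.895% of all genes that rose and 1.99% that fell (2.89% in all). Here too the split turned with scaling, from 102 genes higher and 227 lower as reported to 154 higher and 87 lower with median-of-ratios scaling. Pla2g7 rose 10.5-fold (log2 fold change 2.94, adjusted p = 0.0148), Ptgir rose 7.04-fold (2.61, adjusted p = 0.00978), Hpgds rose 4.20-fold (1.86, adjusted p = 0.0269) and Alox5ap was 2.12-fold lower (-1.08, adjusted p = 0.0289). Ptgs1, Alox5 and Ltc4s missed the threshold at log2 fold changes of 1.91 (adjusted p = 0.0630), -0.87 (0.0582) and -0.83 (0.0993). The CD11ccre value lay above the WT range for Ptgs1, Hpgds, Ptgir and Pla2g7 and below it for Alox5, Alox5ap and Ltc4s. It was within that range for Ptges and Ptgs2, and for Lta4h just below it (125.75 TPM, lowest WT library 125.97 TPM). The share of all genes for which this library lay outside the WT range was not determined, so these places are a description.

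The Pla2g7 and Ptgir calls in CD11ccre held when any WT or Lyz2cre library was left out. Over all alternatives, of which only a replicate block ended these calls, their adjusted p ran from 0.00802 to 0.0787 for Pla2g7 and from 0.00495 to 0.0769 for Ptgir. The Hpgds call ended without WT replicate 1, 2 or 3 (adjusted p = 0.0651, 0.0546 and 0.0518) or Lyz2cre replicate 3 (0.0534), with a range over alternatives of 0.0186 to 0.0769. The Alox5ap call ended without any WT replicate (0.0709, 0.0546 and 0.0536), without Lyz2cre replicate 1 (0.0579) and with median-of-ratios scaling (0.0594), quantile normalization (0.0586) or rescaling without Ftl1, Fth1, Chil3 and Lyz2 (0.0620), and likewise with no filter (0.0537) or no trend (0.0797), with a range of 0.0172 to 0.108. Between CD11ccre and Lyz2cre, 0 of the 9 members passed and 0 had an unadjusted p below 0.05, beside 0.114% of all genes that passed (0.0439% higher and 0.0702% lower in CD11ccre). The 95% intervals of that difference were wide, from -0.89 to 0.90 for Pla2g7 and from -0.72 to 0.09 for Alox5ap on the log2 scale.

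**Figure D3:**
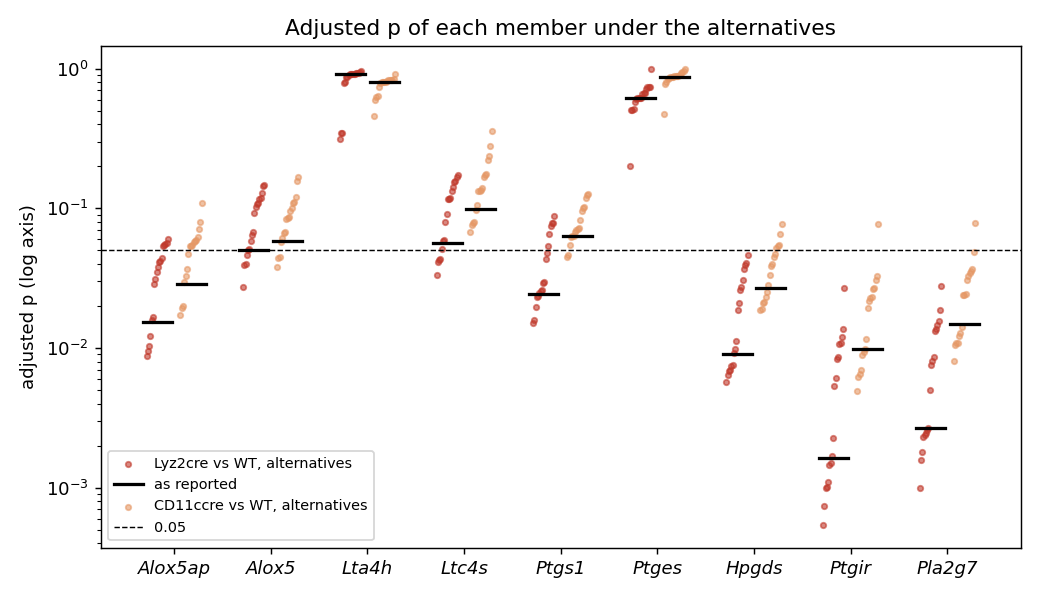
Adjusted p (log axis) of each gene tested under every alternative setting, 1 point per setting, for Lyz2cre and CD11ccre against WT; black bars give the reported value and the dashed line 0.05. For Lyz2cre, all points of Pla2g7, Ptgir and Hpgds lie below the line, those of Alox5ap, Ptgs1, Alox5 and Ltc4s lie on either side of it, and those of Lta4h and Ptges lie above it.

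The order of the genes by level changed in its lower part. Alox5ap, Ltc4s, Alox5 and Lta4h led in that order in both groups, at mean levels of 955, 337, 173 and 134 TPM in the Lyz2cre libraries and 1620, 530, 256 and 132 TPM in WT, and no neighbours among these overlapped. In Lyz2cre the next were Ptgir at 37.5 TPM ± 4.46, Ptgs1 at 23.2 TPM ± 8.75, Pla2g7 at 22.1 TPM ± 3.45 and Hpgds at 14.7 TPM ± 2.99 (SD, n = 3 each), of which Ptgs1 and Pla2g7 overlapped. In WT the next were Ptgs1 at 6.59 TPM ± 1.99, Ptges at 5.31 TPM ± 2.92, Ptgir at 4.81 TPM ± 1.41 and Hpgds at 4.43 TPM ± 0.683 (SD, n = 3 each), each overlapping the next, with Pla2g7 below them at 2.09 TPM ± 0.954. Ptges followed Hpgds in Lyz2cre at 6.26 TPM ± 0.297 (SD, n = 3), and Ptgs2 was last in both groups.

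**Figure D4:**
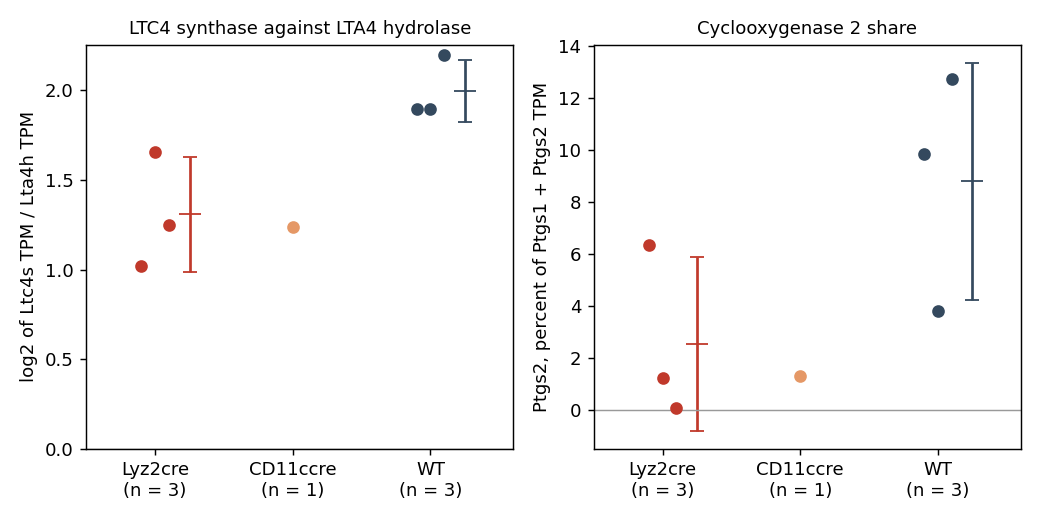
Within-library quantities in Lyz2cre, CD11ccre and WT, with the mean and SD beside the points of 3 libraries: the log2 ratio of Ltc4s to Lta4h TPM and the percent of Ptgs1 plus Ptgs2 TPM that was Ptgs2. The ratio averaged 1.31 in Lyz2cre and 2.00 in WT without overlap, and the Ptgs2 percent overlapped.

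A wider list of 79 genes of eicosanoid and PAF metabolism in 10 roles placed these members in their pathway. Of these, 45 passed the filter of 1 TPM, and 16 were listed at 0 in every library. In Lyz2cre against WT, 3 of the 45 rose and 6 fell, with a median log2 fold change of -0.029, beside -0.16 over all genes tested, of which 2.17% rose and 4.6% fell. In CD11ccre against WT, 3 rose and 3 fell, beside 0.895% and 1.99% of all genes, and these 6 had the same direction in Lyz2cre. These 6 were Anxa1, Lpcat2, Mgst2, Lpcat3, Cyp4f18 and Dpep2, and their Lyz2cre calls held in all 18 alternatives. In CD11ccre, leaving out WT replicate 1 ended all 6 calls (adjusted p = 0.0550 to 0.0865), WT replicate 2 all but Dpep2 (0.0567 to 0.0863), Lyz2cre replicate 1 all but Lpcat3 and Dpep2 (0.0593 to 0.0920), Lyz2cre replicate 2 those of Lpcat2, Mgst2 and Cyp4f18 (0.0557 to 0.0753), WT replicate 3 those of Mgst2 and Cyp4f18 (0.0672 and 0.0576) and Lyz2cre replicate 3 that of Mgst2 (0.0728). Over all alternatives their CD11ccre adjusted p ran from 0.0103 to 0.120.

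Of 8 genes of phospholipid remodelling and PAF synthesis, all tested, 1 rose and 2 fell in Lyz2cre, beside 2.17% and 4.6% of all genes. Lpcat2, which acetylates lyso-PAF to PAF, rose 2.90-fold to 16.3 TPM ± 2.57 in Lyz2cre, against 5.62 TPM ± 0.755 in WT (SD, n = 3 each; adjusted p = 0.00888). The CD11ccre library held 19.33 TPM (adjusted p = 0.0282). Lpcat3, which places arachidonate into membrane phospholipids, fell to 64.2 TPM ± 4.79 in Lyz2cre, against 117 TPM ± 3.11 in WT (SD, n = 3 each), a log2 fold change of -0.86 (adjusted p = 0.00746). It fell to 53.96 TPM in CD11ccre (adjusted p = 0.0186), a call that ended, among other settings, with median-of-ratios scaling (0.0638) or quantile normalization (0.0648). Lpcat4, a further acyltransferase, was at 2.52 TPM ± 1.08 in Lyz2cre, against 9.52 TPM ± 1.66 in WT (SD, n = 3 each; adjusted p = 0.0189). This call ended without WT replicate 2 (0.0669), without Lyz2cre replicate 1 (0.0603) or 3 (0.0772) and with no filter on low values (0.0665). Its adjusted p in Lyz2cre ran from 0.0122 to 0.0772 over alternatives, and Lpcat4 did not pass in CD11ccre (adjusted p = 0.111). The intracellular PAF hydrolase subunits Pafah1b1 and Pafah1b2 did not pass. Pafah1b1 averaged 47.2 TPM in Lyz2cre, had 58.46 TPM in CD11ccre and averaged 54.5 TPM in WT, and Pafah1b2 averaged 29.1 TPM in Lyz2cre, had 23.75 TPM in CD11ccre and averaged 33.1 TPM in WT.

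Of the enzymes that inactivate leukotrienes and prostaglandins, 2 of 9 tested fell and 0 rose in each comparison, while 4.6% of all genes fell in Lyz2cre and 1.99% in CD11ccre. Cyp4f18, which hydroxylates LTB4 in mouse neutrophils, fell to 54.0 TPM ± 9.23 in Lyz2cre and 54.08 TPM in CD11ccre, against 130 TPM ± 16.1 in WT (SD, n = 3; adjusted p = 0.00823 and 0.0401). Its CD11ccre call ended, among other settings, with median-of-ratios scaling (adjusted p = 0.0972), quantile normalization (0.0828) or rescaling without Ftl1, Fth1, Chil3 and Lyz2 (0.0862). Dpep2, a dipeptidase that converts LTD4 to LTE4, fell to 51.6 TPM ± 1.33 in Lyz2cre and 45.53 TPM in CD11ccre, against 112 TPM ± 13.3 in WT (SD, n = 3; adjusted p = 0.00529 and 0.0183). Mgst2, a microsomal glutathione transferase that can also make LTC4, rose 2.13-fold to 37.3 TPM ± 4.03 in Lyz2cre and had 37.07 TPM in CD11ccre, against 17.5 TPM ± 1.75 in WT (SD, n = 3; adjusted p = 0.00951 and 0.0469). Mgst1, a relative with detoxifying activity, averaged 544 TPM in Lyz2cre and 755 TPM in WT (adjusted p = 0.0417), which no longer passed in any fit lacking 1 of the 6 Lyz2cre and WT libraries (0.0553 to 0.137) or with median-of-ratios scaling (0.154; range 0.0222 to 0.163). Mgst3 averaged 40.1 TPM in Lyz2cre and 78.3 TPM in WT (adjusted p = 0.0731).

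**Figure D5:**
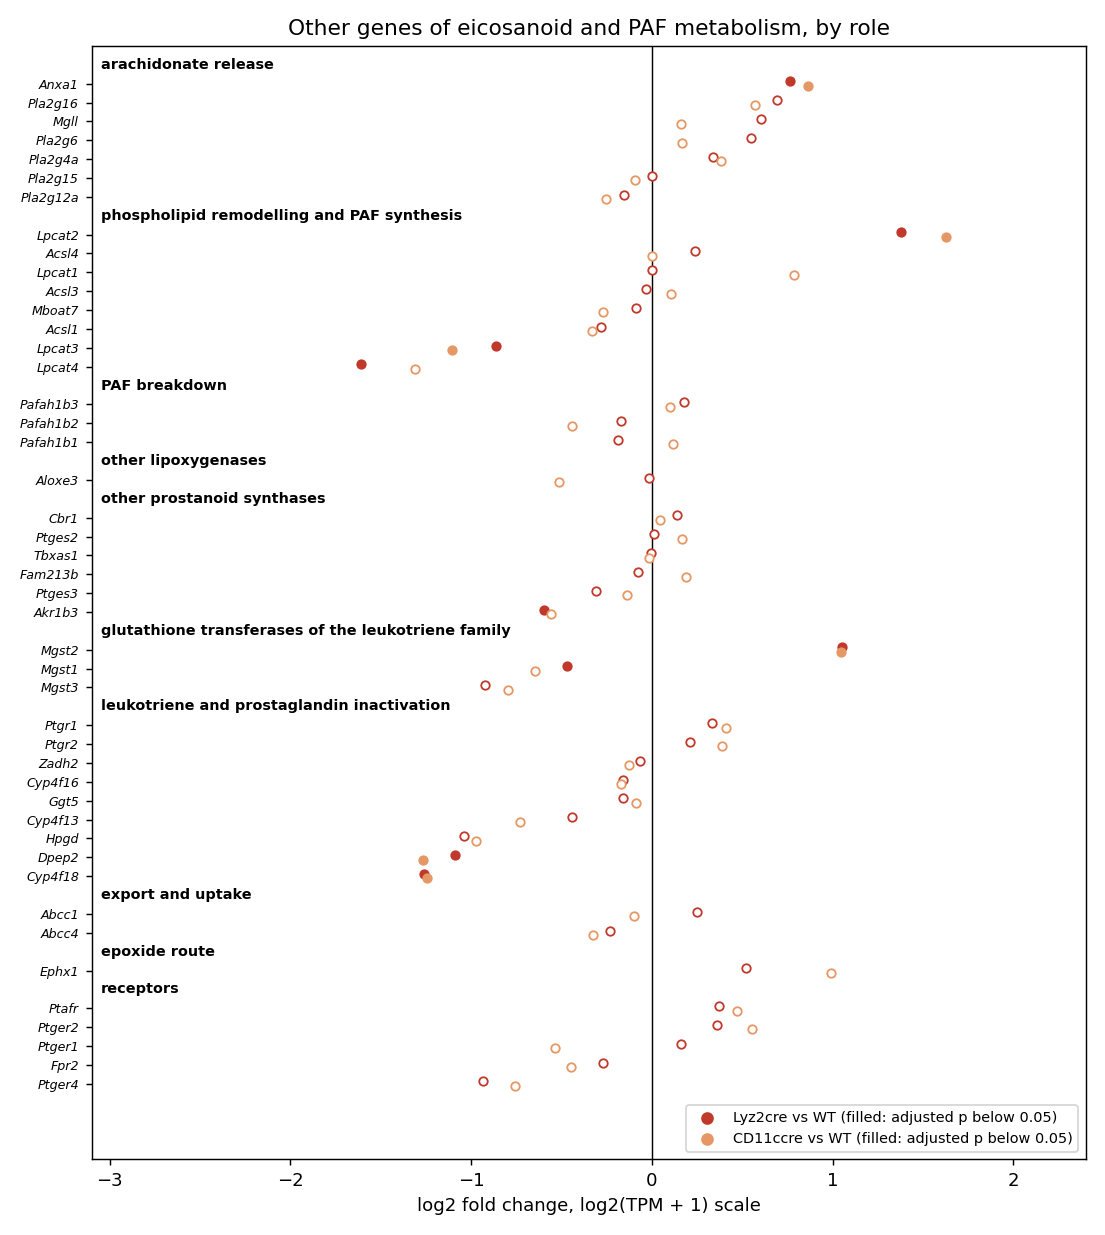
Log2 fold changes, on the log2(TPM + 1) scale, of the 45 other pathway genes tested, grouped by role, for Lyz2cre and CD11ccre against WT; filled points have an adjusted p below 0.05. For Lyz2cre, Lpcat2 (1.38), Mgst2 (1.05) and Anxa1 (0.76) are filled on the right. Lpcat4 (-1.61), Cyp4f18 (-1.26), Dpep2 (-1.09), Lpcat3 (-0.86), Akr1b3 (-0.59) and Mgst1 (-0.47) are filled on the left.

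Upstream of both branches, Anxa1, whose product annexin A1 restrains phospholipase A2, rose 1.70-fold to 904 TPM ± 67.3 in Lyz2cre, against 531 TPM ± 23.6 in WT (SD, n = 3 each; adjusted p = 0.00746). The CD11ccre library held 966.24 TPM (adjusted p = 0.0283). Apart from the member Pla2g7, none of the phospholipase A2 genes tested passed in either comparison. Pla2g15 stood at 226 TPM in Lyz2cre, 211.12 TPM in CD11ccre and 226 TPM in WT. Of the other prostanoid synthases, Akr1b3, an aldose reductase with prostaglandin F synthase activity, was lower in Lyz2cre at 309 TPM, against 465 TPM in WT (adjusted p = 0.0405). That call held in 7 of 18 alternatives, with a range of 0.0230 to 0.126. It ended without WT replicate 1 (0.0821), 2 (0.116) or 3 (0.0754) and without Lyz2cre replicate 1 (0.114) or 3 (0.126). Among other settings, it also ended with median-of-ratios scaling (0.125), quantile normalization (0.0637) and rescaling without Ftl1, Fth1, Chil3 and Lyz2 (0.118). Tbxas1, the thromboxane synthase, stood at 95.5 TPM ± 1.53 in Lyz2cre and 94.72 TPM in CD11ccre, against 95.9 TPM ± 6.42 in WT (SD, n = 3; adjusted p = 0.987 and 0.965). Mgll averaged 234 TPM in Lyz2cre and 154 TPM in WT, with 171.23 TPM in CD11ccre. Its log2 fold change of 0.60 in Lyz2cre (95% interval 0.25 to 0.96) did not pass (adjusted p = 0.0598). Mgll in CD11ccre, and Ptges3, Cbr1, Cyp4f16, Mboat7 and Acsl1 in either comparison, did not pass.

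Among 15 receptors, Ptgir aside, 5 were tested and 0 passed. Fpr2, a receptor for lipoxin A4 and formyl peptides, was the most abundant of them at 366 TPM ± 44.9 in Lyz2cre and 321.80 TPM in CD11ccre, against 440 TPM ± 34.3 in WT (SD, n = 3; adjusted p = 0.232 and 0.190). Ptger4, a receptor for prostaglandin E2 named after its values were seen, averaged 5.91 TPM in Lyz2cre and 11.9 TPM in WT (adjusted p = 0.0564). Of the leukotriene receptors, also named after their values were seen, Ltb4r1 did not exceed 0.16 TPM in Lyz2cre, 0.54 TPM in CD11ccre and 0.18 TPM in WT, Cysltr1 stood at 0.66 to 0.96 TPM in Lyz2cre, 0.64 TPM in CD11ccre and 0.62 to 1.49 TPM in WT, and Cysltr2 was listed at 0 in every library.

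Genes with the most similar pattern were found by the root mean square difference of log2(TPM + 1), centred on the WT mean, over the 7 libraries and 8567 genes with a mean of at least 5 TPM. The gene nearest to Pla2g7 was Ptgir, at a difference of 0.35, followed by Slc7a11 and Msr1, both at 0.37. Slc7a11 encodes the cystine transporter subunit and Msr1 a scavenger receptor. Nearest to Ptgir were Slc6a8, a creatine transporter, at 0.31, the chemokine receptor gene Cxcr1 at 0.34 and Pla2g7 at 0.35. Nearest to Ptgs1 were Rgcc, a regulator of the cell cycle, at 0.21, and Gdpd1 and Mlph, both at 0.25. Nearest to Hpgds were Rgcc at 0.13, Ripk3, a kinase of necroptosis, at 0.16 and Mreg at 0.21. Nearest to Alox5ap were Dmxl2, Add3 and Gm2a, at 0.079 to 0.086. All 7 libraries and the split between deleted and WT libraries are shared by these patterns, so the likeness is a description.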

How the data were processed

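TPM values were deposited by the authors in 1 table of 47643 genes by 7 libraries. Poly(A) RNA was made into directional libraries and read from 1 end, per the labels' protocols. Tools named in the submitters' processing notes are RSEM 1.3.1, STAR 2.7.0d and cutadapt 2.3, with the build mm10, while the annotation release and the strand setting were not found in those notes. Libraries were grouped by title. GENCODE M21 (GRCm38) gave coordinates (47224 of 47643 IDs matched) and overlaps with other genes. Alox5ap, Ltc4s, Ptgs1, Hpgds and Pla2g7 overlap genes on the opposite strand, whose reads cannot be told apart if strand was not used.

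Values were fitted as log2(TPM + 1) in limma 3.58.1 (R 4.3.3), with a mean TPM of at least 1 (11397 genes), all libraries in 1 fit, a coefficient per genotype, a variance trend, and two-sided Benjamini-Hochberg p-values over all genes tested (threshold 0.05). Within-library ratios used exact permutation tests. The script was tested on simulated data. Members and lists were chosen with earlier results of these data known. All 10 members are named, with every called gene of the wider pathway list, its 12 most abundant uncalled genes, and the 3 nearest genes by pattern for each called member. Alternatives were pseudocounts of 0.1 and 5, no filter, a mean of at least 5 TPM, scaling and quantile choices, limma without the trend or robust, a replicate block, and leaving out each library. At most 1.79% of values were identical between any pair. The depth is unknown.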

Additional observations from a re-analysis of the deposited data

Results flagged for a closer look

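The Lyz2 transcript differed between the deleted lines by a log2 fold change of 9.84 in CD11ccre against Lyz2cre (limma contrast, adjusted p = 1.31e-06), at 50676.05 TPM in the 1 CD11ccre library and 54.7 TPM ± 7.68 in Lyz2cre (SD, n = 3), against 78.8 TPM ± 6.92 in WT (SD, n = 3). All 3 Lyz2cre libraries were below the CD11ccre library. No member of the eicosanoid or PAF list met the conditions for such a listing. Groups of 3 libraries were not examined for single outlying values.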

How the results depend on the processing

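Pla2g7, Ptgir and Hpgds passed in Lyz2cre under all 18 alternatives, and no called log2 fold change turned its sign. The 5 members called in Lyz2cre numbered 3 with no filter on low values and 3 to 6 when each library was left out. They numbered 7 with a mean of at least 5 TPM, with robust fitting, or rescaled without mitochondrially encoded genes. The 4 called in CD11ccre numbered 2 to 4 when each other library was left out. Genes called in Lyz2cre, 771 as reported (247 higher and 524 lower), numbered 342 with no filter (137 higher, 205 lower), 436 without the trend, and 239 to 833 when each library was left out; median-of-ratios scaling called 337 higher and 207 lower. Genes called in CD11ccre, 329 as reported, numbered 201 with quantile normalization (122 higher, 79 lower), 205 rescaled without Ftl1, Fth1, Chil3 and Lyz2 (116 higher, 89 lower), 300 higher and 193 lower with no filter, 550 rescaled without mitochondrially encoded genes, 122 without the trend, and 94 to 183 when each other library was left out. Genes called between CD11ccre and Lyz2cre, 13 as reported, numbered 210 with no filter and 2 to 11 when each library was left out, with 0 members throughout. Other pathway genes called in CD11ccre, 6 as reported, numbered 1 without the trend and 0 to 5 when each library was left out. The cause was not tested.

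Whether replicate numbers pair the libraries is not stated in the labels. Same-numbered Lyz2cre and WT libraries had correlations of deviations of -0.015, 0.043 and 0.066. Of the Lyz2cre libraries, only replicate 3 correlated best with its own number. With 3 libraries per group these values cannot decide on a pairing, so the fit with the replicate number as a block is given too. With the replicate number as a block, 390 genes and 3 members were called in Lyz2cre (Alox5ap at an adjusted p of 0.0538, Ptgs1 at 0.0541), 21 genes, 0 members and 0 other pathway genes in CD11ccre (Pla2g7 at 0.0787 and Ptgir at 0.0769), and 3 genes between CD11ccre and Lyz2cre. Under the block the CD11ccre against Lyz2cre log2 fold changes were 0.017 for Ltc4s and -0.30 for Pla2g7.

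Signs turned only for differences that did not pass. Lta4h in Lyz2cre was -0.050 rescaled without mitochondrially encoded genes and -0.019 to 0.059 with a library left out. In CD11ccre against WT, Lta4h was 0.25 with median-of-ratios scaling, 0.19 with quantile normalization and 0.16 rescaled without the 4 abundant genes, and Ptges was 0.10, 0.13 and 0.027 in these settings. With a library left out, Ptges ran from -0.47 to 0.19 in CD11ccre and from -0.00082 to 0.65 in Lyz2cre. In CD11ccre against Lyz2cre, Lta4h was 0.043 with median-of-ratios scaling, and Mgst2 was 0.13 with median-of-ratios or quantile scaling, 0.060 rescaled without the 4 genes, 0.0038 without mitochondrially encoded genes and -0.074 to 0.076 with a library left out. Left-out ranges there were -0.12 to 0.093 for Pla2g7, -0.059 to 0.14 for Akr1b3 and -0.12 to 0.12 for Cyp4f18. The unknown depth limits what can be said of Ptgs2 and other genes below 1 TPM.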
